A study of Homo sapiens with 6 samples.

Results

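The genes described here are the integrin and laminin genes, 40 of the 20163 protein coding genes that GENCODE annotates on chromosomes 1 to 22, X and Y of the human genome build GRCh37. The rule that picks them reads symbols and no measured value, while the family itself was taken up with earlier results of these data known. The set held 26 integrin subunit genes (18 alpha and 8 beta), 12 laminin chain genes, and ITGBL1 and ITGB3BP, 2 genes that share the symbol but encode no receptor subunit. Native ChIP-Seq, in which micrococcal nuclease cuts chromatin into nucleosomes that are immunoprecipitated without crosslinking, was performed in U2OS cells, an established human osteosarcoma line grown to 2 days past confluence in every group. The tagged line, ProMMP2-3xHA, was made with a lentivirus and puromycin selection and constitutively expresses the pro-form of the matrix metalloproteinase MMP-2 with a C-terminal 3xHA tag beside its own MMP-2. In the wild type (WT) cells MMP-2 is untagged. HA was immunoprecipitated from ProMMP2-3xHA cells in 3 replicates, and H3K4me3 from the ProMMP2-3xHA and WT cells with 1 library each, so the 3 HA replicates share 1 line and the H3K4me3 lists have no replicate. The study's text calls the HA replicates independent, while the sample labels give only a number. By the list names, the HA peaks of each replicate were called over an HA control immunoprecipitation, and no peak list of the WT HA library was used here. Only 1 HA library of WT cells is among the samples, so the replicates probably share 1 control. The SD of a fold enrichment over the 3 replicates then leaves out the error of that control.

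Integrins are cell surface receptors made of 1 alpha and 1 beta chain that bind the extracellular matrix outside the cell and, through talin and kindlin, the actin cytoskeleton inside it. Laminins are heterotrimers of 1 alpha, 1 beta and 1 gamma chain that form the sheet of the basement membrane and are ligands of several integrins. MMP-2 is known as a secreted enzyme that cuts matrix proteins, and in the study it was examined as a protease of the histone H3 tail in chromatin. H3K4me3, trimethylated lysine 4 of histone H3, marks the promoters of active genes. The comparison here asked at which adhesion genes tagged MMP-2 was recovered at the transcription start site (TSS), and whether those TSSs carried H3K4me3.

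A gene was scored as positive when a peak lay within 1 kb of any TSS of its protein coding transcripts. The members had 180 such TSSs, between 1 and 19 per gene with a median of 3, which was also the median over all genes. The lists held 6391 to 9176 peaks per HA replicate, 7211 peaks in the merged HA list that the authors called on the pooled replicates, and 19068 (ProMMP2-3xHA) and 17101 (WT) H3K4me3 regions. The WT regions were wider, with a median of 1482 bp against 895 bp, and the depth of both H3K4me3 libraries is unknown. For the HA replicates the fragments at a summit were recovered from the fold enrichment and p-value that the peak caller wrote, with medians of 49, 47 and 41 fragments over all peaks of replicates 1, 2 and 3. Of the mesenchymal and osteoblast markers, 5 of 8 had H3K4me3 in both cell lines, a share like that of all genes (12592 of 20163). Among the 5 were RUNX2, COL1A1, SPARC and VIM, and COL1A2, ALPL and TWIST1 had none. None of the 5 leukocyte markers, 1 of 4 epithelial markers (EPCAM) and 1 of 3 endothelial markers found in the annotation (KDR) had H3K4me3.

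Merged HA peaks were found at 10 of the 40 genes: ITGB1, ITGB2, ITGB3, ITGB5 and ITGB8 among the beta subunits, ITGAV, ITGA5, ITGA1 and ITGA3 among the alpha subunits, and LAMC1 among the laminins. This is 25% of the members (95% exact Clopper-Pearson interval 12.7 to 41.2%, counting error only), beside 31.7% of all protein coding genes. Replicate 1 had a peak at 7 members (17.5%, beside 23.3% of all genes), replicate 2 at 11 (27.5%, beside 31.5%) and replicate 3 at 11 (27.5%, beside 32.1%). Every share of members lay below that of all genes and the background lay inside the interval, so the count of HA peaks is no result about integrin and laminin genes as a set. By subunit class the counts were 5 of 8 beta subunits, 4 of 18 alpha subunits and 1 of 12 laminin chains. These classes are small, a difference between them was not tested, and ITGB2 was counted only through starts other than its canonical TSS.

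**Figure D1:**
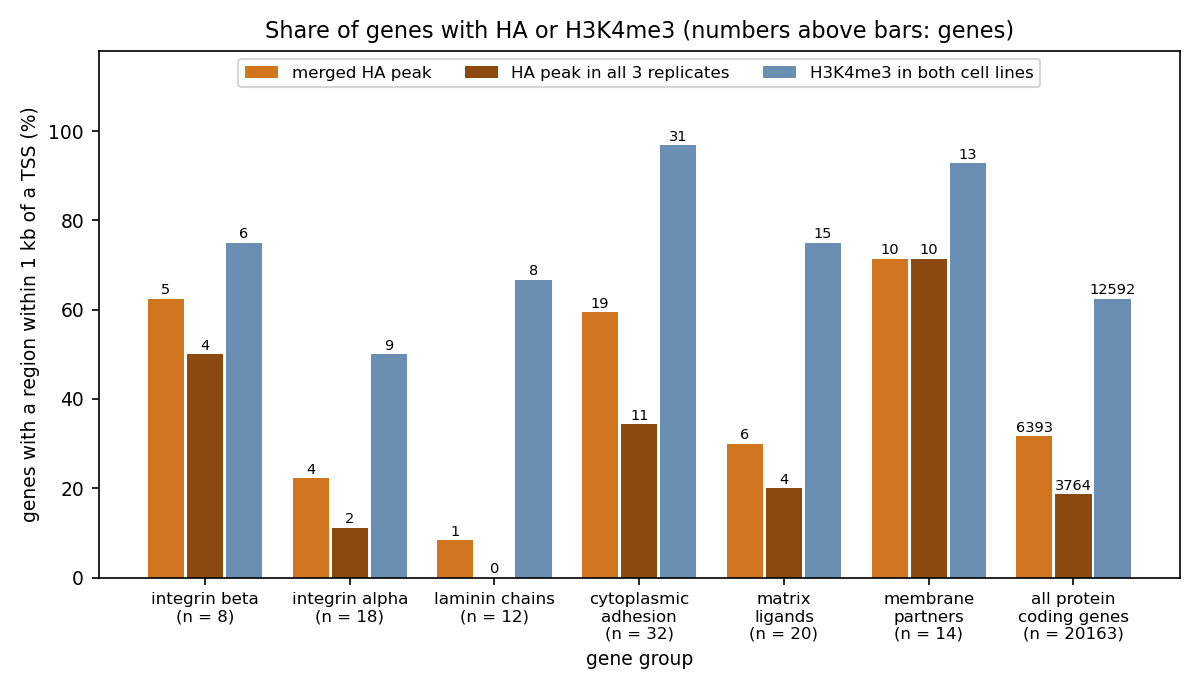
Percentage of genes (vertical axis) with a merged HA peak, an HA peak in all 3 replicates or H3K4me3 in both cell lines within 1 kb of a TSS, for each gene group, with the number of genes above each bar. The bars of integrin beta subunits (5 of 8 with a merged HA peak) are above those of alpha subunits (4 of 18) and laminin chains (1 of 12), and 31.7% of all protein coding genes had a merged HA peak.

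Across replicates, 28 members had no HA peak near a TSS in any replicate, 1 had a peak in 1 replicate, 5 in 2 replicates and 6 in all 3. As shares of the members these are 70, 2.5, 12.5 and 15%, beside 60.4, 10.8, 10.1 and 18.7% of all genes. The 6 were ITGB1, ITGB5, ITGB8, ITGAV, ITGA1 and ITGB2. At 5 of them the replicates marked 1 and the same merged peak, while at ITGB2 they marked separate sites. Counting instead merged peaks that a peak of every replicate overlapped also gave 6 members, beside 18.9% of all genes, with ITGA3 in place of ITGB2.

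All 10 members with a merged HA peak had H3K4me3 near a TSS in both cell lines. Of the 25 members with H3K4me3 in both lists, 10 (40%, interval 21.1 to 61.3%) had a merged HA peak, beside 50.1% of all genes with H3K4me3 in both. Of the other 15 members 0 had one, which allows a share of up to 21.8%, beside 1.08% of all genes without H3K4me3 in both. HA peaks were thus rare at genes without H3K4me3 in general, and a count of 0 among 15 members is no result about the members. The scoring takes all TSSs of a gene together: the intron 1 HA peak of ITGB2 lay near starts without H3K4me3 in either line. The replicate 3 peak of LAMA2 also lay near such starts.

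ITGB1 encodes the beta1 chain, the partner of most alpha chains that bind collagen, laminin or fibronectin. Its fold enrichment of HA over the control at the summit was 5.39, 6.60 and 6.73 across the replicates in order (6.24 ± 0.738, mean ± SD, n = 3). At 90, 99 and 100 fragments, its summits were the most deeply covered among the members in each replicate. The control background at these summits, 3.866, 4.498 and 4.098 fragments, was also the highest among the member summits in each replicate. The depth alone is therefore no measure of HA recovery at ITGB1. The 3 summits lay within 12 bp of each other, 353 to 365 bp upstream of the canonical TSS, inside the merged peak chr10:33247104-33247747, and the divergent noncoding gene ITGB1-DT starts within 1 kb of that peak. ITGB1 also had the most annotated starts, 19, of which 15 were near the merged peak and 16 near H3K4me3.

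ITGB5 and ITGB8 encode beta chains that pair with the alphaV chain. ITGB5 had values of 5.97, 7.80 and 5.95 (6.57 ± 1.07, SD, n = 3) with 46, 53 and 40 fragments. In each replicate ITGB5 carried a pair of peaks, the stronger in intron 1, between 739 and 773 bp into the gene, and the weaker around the TSS, with values of 5.12, 6.03 and 4.56. The merged list joined the pair into 1 region of 1365 bp, chr3:124605275-124606639. ITGB8 had values of 4.76, 6.83 and 6.36 (5.98 ± 1.08, SD, n = 3) with 36, 46 and 43 fragments, at summits 423 to 458 bp upstream of the canonical TSS in the merged peak chr7:20369590-20370877. The noncoding gene ITGB8-AS1 starts within 1 kb of it. The replicates of both genes overlapped in value, and neither gene was separated from ITGB1 by more than the spread between replicates.

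ITGB3 encodes the beta3 chain of the platelet fibrinogen receptor and of the alphaV beta3 vitronectin receptor. It had peaks in replicate 2 (5.53, 52 fragments) and replicate 3 (4.26, 36 fragments) and none in replicate 1, with summits 271 and 216 bp downstream of the canonical TSS in intron 1. The merged peak was chr17:45331314-45331536, and a gene known only by its identifier, ENSG00000259753, has a TSS within 1 kb of it. ITGB4, the beta chain that pairs with alpha6 in hemidesmosomes, had no merged peak and 1 peak in replicate 3 (3.61, 30 fragments). That peak lay in intron 32 of the canonical transcript near internal starts and away from the first exon. ITGB6 and ITGB7, an epithelial and a leukocyte beta chain, had neither HA nor H3K4me3.

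ITGB2 encodes the beta chain of the leukocyte integrins. Its values were 9.34 in replicate 1 and 8.50 in replicate 2, with 74 and 58 fragments, the highest fold enrichment of any member in these replicates, at a site in intron 1, 9344 and 9313 bp downstream of the canonical TSS (merged peak chr21:46331394-46331643). This site was close to annotated internal starts, with summits 95 and 126 bp upstream of the nearest one. Neither cell line had H3K4me3 within 1 kb of this site. In replicate 3 there was no peak at this site. The value of 4.73 (33 fragments) came from another site, chr21:46347781-46348241 in the merged list. Its summit lay upstream of the canonical TSS and 433 bp downstream of another annotated start, beside H3K4me3 of both lines. The 3 values of ITGB2 therefore do not describe 1 site and have no common mean. The alpha chains that pair with this beta chain, ITGAL, ITGAM, ITGAX and ITGAD, had no HA peak in any list near a TSS.

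The sequences under 4 of these HA sites are shown because the sites differ in base composition and in place: intron 1 of ITGB5, the upstream sites of ITGA5 and LAMC1 described next, and the intron 1 site of ITGB2. Each is the GRCh37 sequence of 200 bases around the replicate 2 summit, 5′ to 3′ on the strand of the gene (chr3:124605344-124605543, minus strand, chr12:54813349-54813548, minus strand, chr1:182991497-182991696, plus strand and chr21:46331401-46331600, minus strand, in this order). Capitals mark a match on either strand to 1 of 5 motifs. The motifs searched were TATAAA for the TATA box, GGGCGG for the GC box bound by Sp1, CCAAT for the box bound by NF-Y, TGANTCA for the site of AP-1, and CACGTG for the E-box. No marked matches overlap in the windows shown. The LAMC1 window surrounds the weaker of its 2 replicate summits, which lies just outside the merged peak, and holds neither the stronger summit nor most of that peak.
ITGB5: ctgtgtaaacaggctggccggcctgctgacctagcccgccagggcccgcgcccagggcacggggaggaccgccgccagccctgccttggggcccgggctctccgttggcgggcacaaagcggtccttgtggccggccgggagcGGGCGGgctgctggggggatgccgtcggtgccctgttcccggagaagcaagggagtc
ITGA5: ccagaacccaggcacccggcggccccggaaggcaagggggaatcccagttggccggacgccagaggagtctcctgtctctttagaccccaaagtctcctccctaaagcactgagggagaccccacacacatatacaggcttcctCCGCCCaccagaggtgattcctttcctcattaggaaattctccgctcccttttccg
LAMC1: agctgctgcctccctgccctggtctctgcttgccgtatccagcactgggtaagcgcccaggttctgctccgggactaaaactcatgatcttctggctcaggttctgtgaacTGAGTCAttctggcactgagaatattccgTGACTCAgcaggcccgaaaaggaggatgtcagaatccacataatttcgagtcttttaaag
ITGB2: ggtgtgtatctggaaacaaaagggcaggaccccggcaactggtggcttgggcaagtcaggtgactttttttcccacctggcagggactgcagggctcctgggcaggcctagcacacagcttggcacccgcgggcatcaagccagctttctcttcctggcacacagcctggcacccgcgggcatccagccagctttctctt
The ITGB5 window had 74.5% G and C and 1 GC box, the ITGA5 window 59% and 1 GC box, the LAMC1 window 51.5% and 2 AP-1 matches, and the ITGB2 window 61% and no match. Over the 11 members with a replicate 2 peak the median was 69%, beside 68% over the 6348 genes with one. GC box letters were in 6 of these 11 windows (54.5%), beside 47.8% of all such windows, and AP-1 letters in 1 (9.09%), beside 1.94%. The ITGB2 window repeats itself: 17 bases recur exactly after a shift of 47 bases, a self-match that 1.40% of the 6348 gene windows equalled or exceeded, and in the other 10 members the longest such match was 7 to 10 bases. How reads map to this repeat was not tested.

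Among the alpha subunits, ITGAV encodes the alphaV chain, which with several beta chains binds the RGD motif of vitronectin and fibronectin. Its values were 3.78, 3.89 and 3.85 (3.84 ± 0.0569, SD, n = 3) with 49, 45 and 44 fragments. These fold enrichments were the lowest of the members with a peak in all 3 replicates and the closest between replicates. The fragments were not the fewest, and the control background was 2.90, 3.37 and 3.07 fragments. ITGB8 had 36, 46 and 43 fragments over a control background of 1.33, 1.55 and 1.41. The summits lay 98 to 116 bp downstream of the canonical TSS in the first exon, in the merged peak chr2:187454448-187454972. ITGA5, the alpha chain of the main fibronectin receptor, had values of 7.65 in replicate 1 and 6.97 in replicate 2, with 60 and 47 fragments, and no peak in replicate 3. The summits lay 416 and 399 bp upstream of its canonical TSS, in the merged peak chr12:54813151-54813609. The other RGD-binding alpha chains had no HA peak near a TSS: ITGA2B, the platelet chain, had narrow H3K4me3 at an internal start only, and ITGA8 had none.

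ITGA1, ITGA2, ITGA10 and ITGA11 encode the alpha chains of the collagen receptors. ITGA1 had values of 4.74, 6.83 and 4.29 (5.28 ± 1.35, SD, n = 3) with 37, 46 and 28 fragments, at summits 134 to 387 bp downstream of its only TSS, in the merged peak chr5:52083833-52084230. PELO, a gene of ribosome rescue whose transcript starts in the same promoter, has a TSS within 1 kb of this peak, and the assay cannot tell the genes apart. ITGA2, the next integrin gene along chromosome 5, had no HA peak within 1 kb although its H3K4me3 was among the widest of the alpha subunits in ProMMP2-3xHA cells (2302 bp). Its nearest merged HA peak was 120189 bp away.

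The laminin receptor chains are encoded by ITGA3, ITGA6 and ITGA7. ITGA3 had a merged peak of 5070 bp, chr17:48128698-48133767, with its centre 2241 bp upstream of the canonical TSS. The 5′ end of the noncoding gene PICART1 lies inside this peak or within 1 kb of it. Within 1 kb of the ITGA3 TSSs the values were 3.90 in replicate 2 (41 fragments) and 3.53 in replicate 3 (50 fragments). Replicate 1 had a peak of 4.12 inside the merged region but beyond 1 kb of a TSS. ITGA6 and ITGA7 had H3K4me3 in both lines and no HA peak near a TSS. ITGA4, whose chain pairs with beta1 or beta7, ITGA9 and the 5 leukocyte alpha chains had no HA peak near a TSS either.

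**Figure D2:**
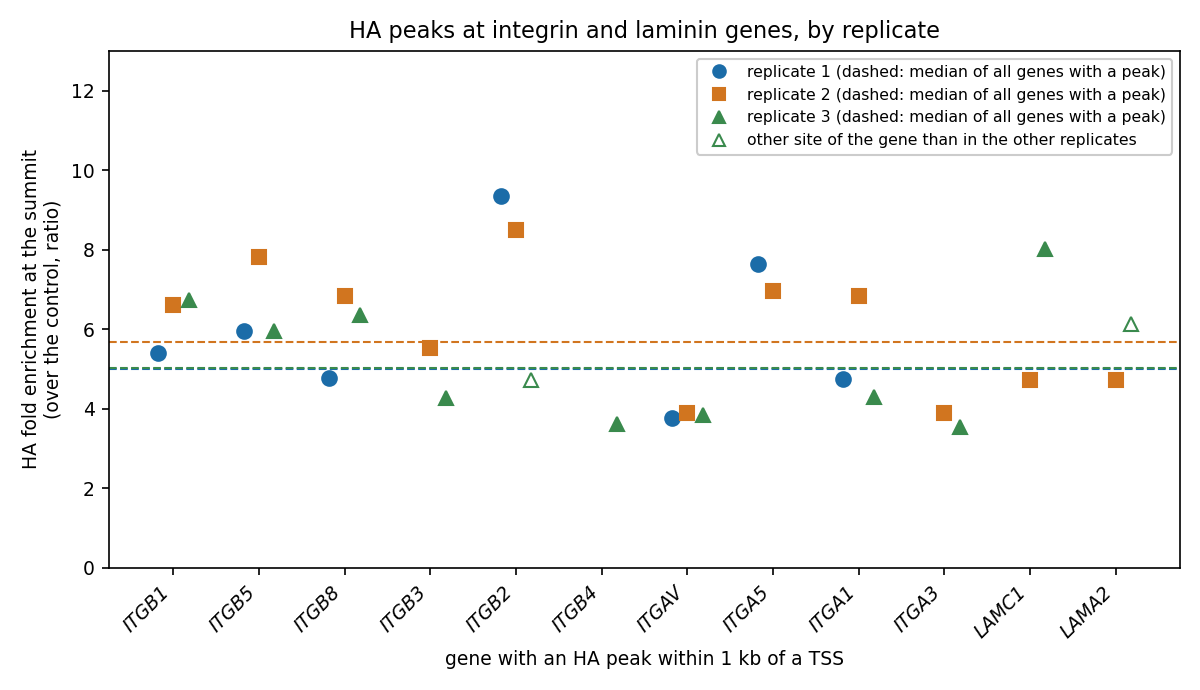
HA fold enrichment over the control at the strongest summit within 1 kb of a TSS (vertical axis, ratio) for the 12 genes with a peak in any replicate, with 1 symbol per replicate, dashed lines at the median of all genes with a peak in that replicate, and open symbols where replicate 3 marked another site of the gene. ITGB2 in replicates 1 and 2 (9.34 and 8.50) and LAMC1 in replicate 3 (8.02) lie highest, and ITGAV lies below the dashed lines in all 3 replicates.

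Of the laminins, LAMC1, the gamma chain of most laminin trimers, had the only merged HA peak, chr1:182991634-182992161. Its values were 4.71 in replicate 2 and 8.02 in replicate 3 (32 and 58 fragments), and replicate 1 had no peak. The replicate summits lay 480 bp apart, 958 and 478 bp upstream of the TSS. The LAMC1 sequence above was cut around the replicate 2 summit, so its AP-1 matches lie near that summit by construction. LAMA2, the alpha chain of muscle basement membranes, had no merged peak and peaks in replicates 2 (4.73, 31 fragments) and 3 (6.14, 56 fragments) that lay at separate starts: the first 25 bp downstream of the canonical TSS and the other in intron 56, 607771 bp into the gene. The other 10 laminin genes had no HA peak near a TSS in any replicate.

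The strength of the members' peaks did not separate them from other genes. The median fold enrichment of the members with a peak was 5.39 (replicate 1), 6.60 (replicate 2) and 4.73 (replicate 3), or 5.57 ± 0.946 on average (SD, n = 3). Over all genes with a peak it was 5.00, 5.68 and 5.03, or 5.24 ± 0.384 (SD, n = 3). The members were higher in replicates 1 and 2 and lower in replicate 3. The medians of members rest on 7, 11 and 11 genes.

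The summits were described relative to the nearest TSS of the gene, in the direction of transcription. Between 42.9 and 54.5% of the members' summits lay downstream, beside 54.6 to 57.3% for all genes. This depended on the TSS used: the mean over replicates was 47.6% for members and 55.8% for all genes from the nearest TSS, and 58.9 and 64.1% from the gene 5′ end. The median distance from the TSS, either way, was 225, 310 and 315 bp for members and 144, 156 and 151 bp for all genes. The medians of the members were thus the larger in each replicate, on 7 to 11 genes. At ITGB1, ITGB8, ITGA5, LAMC1 and ITGA3 the strongest summit of every replicate with a peak was upstream of the nearest TSS. At ITGB5, ITGAV, ITGA1, ITGB3 and LAMA2 it was downstream. The summit of ITGB4 was upstream, and those of ITGB2 lay on both sides.

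**Figure D3:**
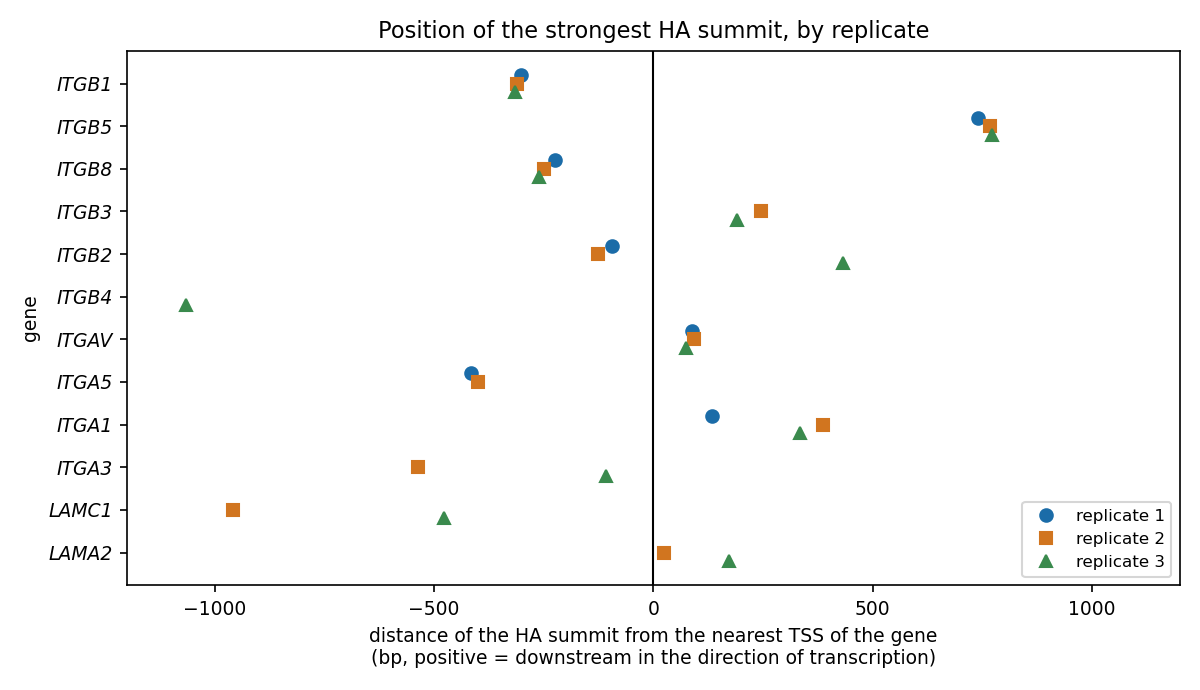
Distance in bp from the nearest TSS of the gene to the strongest HA summit (horizontal axis, positive downstream), with 1 symbol per replicate for each of the 12 genes with a peak. At ITGB1, ITGB5, ITGB8, ITGAV and ITGA5 the replicates fall close together, while at LAMC1, ITGA3 and ITGB2 they lie apart.

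H3K4me3 lay near a TSS of 25 members in ProMMP2-3xHA cells (62.5%, beside 62.7% of all genes) and of 30 in WT cells (75%, beside 66.4%). The median summed width of these regions was larger at members with HA. In ProMMP2-3xHA cells the median was 2232.5 bp (567 to 4798 bp) over the 10 members with a merged HA peak and 1354 bp (288 to 2302 bp) over the 15 without, a ratio of 1.65, beside 1.45 over all genes. In WT cells the medians were 2345 and 1195.5 bp, a ratio of 1.96, beside 1.37. The widest regions of ProMMP2-3xHA cells were those of ITGB8 (4798 bp), ITGB1 (4414 bp) and ITGA3 (3905 bp), all with HA, and the narrowest of a gene with HA was that of ITGA1 (567 bp).

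The other 7 genes with a merged HA peak had these widths, each given first for ProMMP2-3xHA and then for WT cells. LAMC1 had 2473 and 3664 bp, ITGAV 2235 and 2089 bp, and ITGB5 2230 and 2601 bp. ITGA5 had 1713 and 1992 bp, ITGB3 939 and 1538 bp, and ITGB2 639 and 1183 bp, where the region belonged to the upstream site alone. The WT widths of the 4 named above were 4667 bp for ITGB8, 5038 bp for ITGB1, 5798 bp for ITGA3 and 1394 bp for ITGA1. Most of these genes were therefore narrower in ProMMP2-3xHA cells, and ITGAV and ITGB8 slightly wider.

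Of the 15 members with H3K4me3 in both lines and no merged HA peak, LAMB1 (2293 and 2629 bp), ITGB3BP (1892 and 2109 bp) and LAMB2 (1845 and 2004 bp) had regions as wide as many genes with HA. ITGB3BP, a centromere protein that binds the tail of beta3, shares its region with the TSS of EFCAB7. ITGA2 (2302 and 2137 bp), ITGA7 (1564 and 1141 bp) and LAMA5 (1354 and 1250 bp) were wider in ProMMP2-3xHA cells. LAMA1 had 1403 and 1760 bp, ITGBL1, a secreted protein with integrin-like repeats, 1393 and 1632 bp, and ITGB4 839 and 991 bp. The narrow regions were those of LAMA2 (400 and 834 bp), LAMA4 (383 and 1070 bp), ITGA2B (339 and 500 bp, at an internal start) and ITGA4 (288 and 1126 bp). ITGA6, the alpha chain of hemidesmosomes, had 1168 and 3069 bp and LAMC3 661 and 2061 bp.

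With 1 H3K4me3 library per line no difference between the lines can be tested, and the depth of each library cannot be told apart from the line. Of the 25 members with H3K4me3 in both, 20 (80%) were narrower in ProMMP2-3xHA cells, with a median ratio of 0.847, beside 93.2% of genes and a median ratio of 0.777 over all 12592 genes with both. A width of less than 0.5 of that in WT cells was found at 6 members (24%, beside 11.7% of genes): ITGA6, ITGA4, ITGA1, LAMA2, LAMA4 and LAMC3. The members thus shared the narrower regions of the ProMMP2-3xHA list with most genes, and the ratios of those 6 lay from 0.256 to 0.480.

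**Figure D4:**
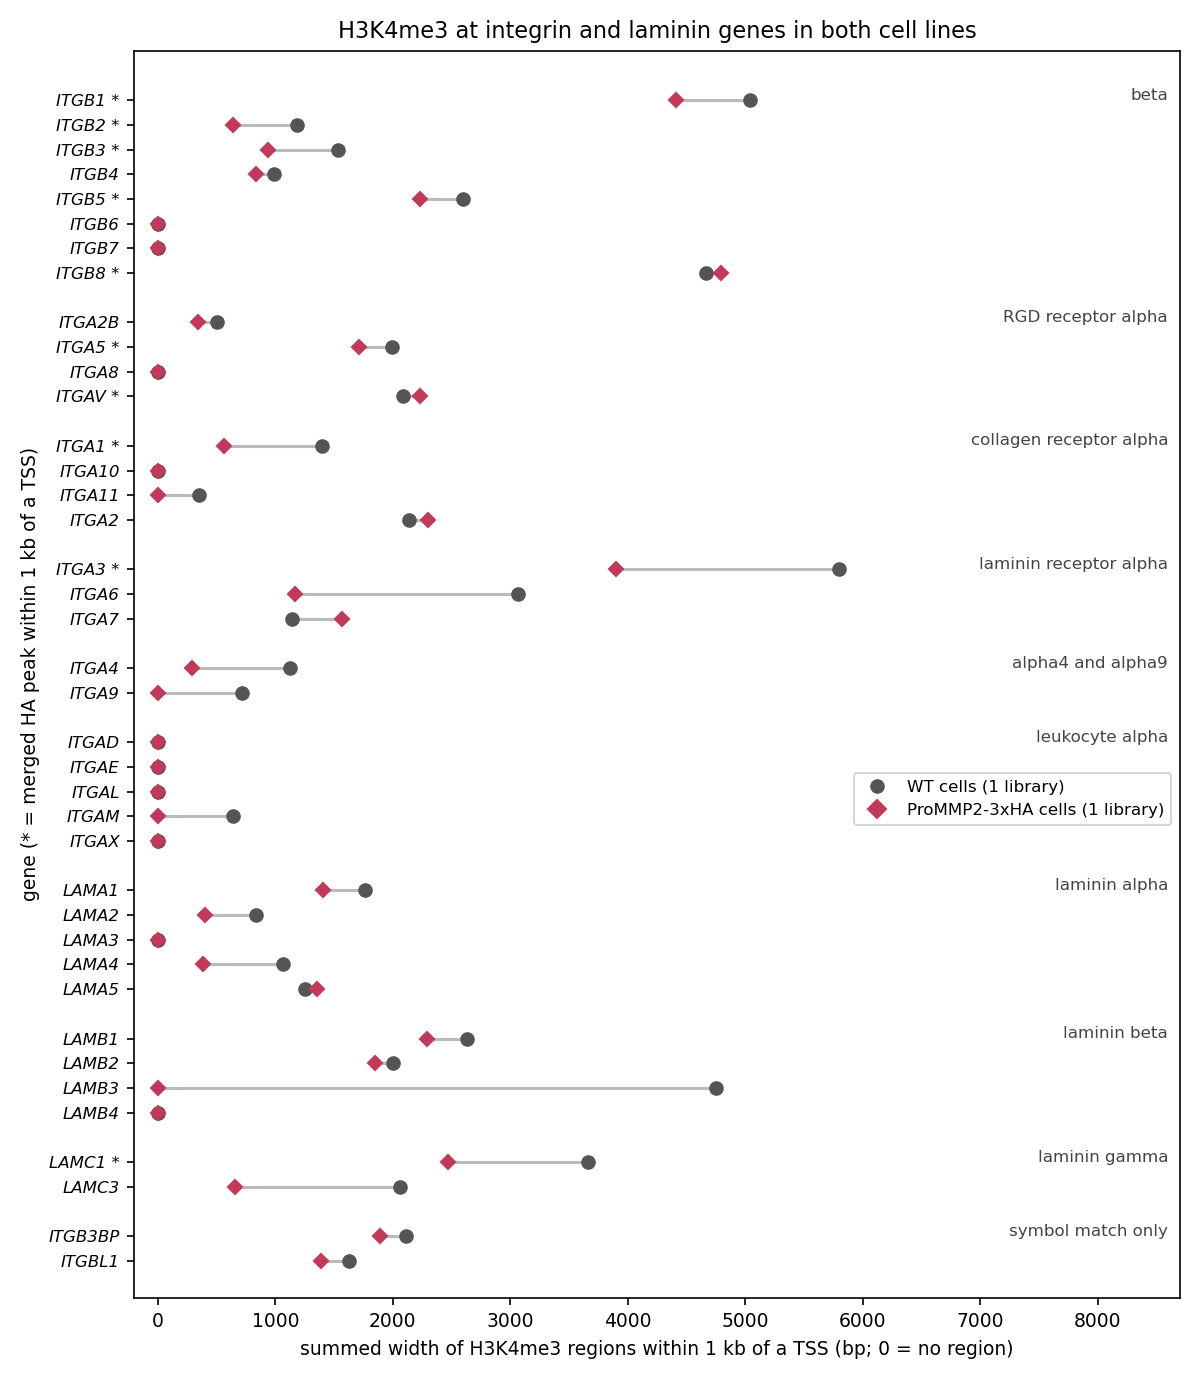
Summed width of H3K4me3 regions within 1 kb of a TSS in bp (horizontal axis) for 39 of the 40 genes by group, with circles for WT cells and diamonds for ProMMP2-3xHA cells, 1 library each, and an asterisk at genes with a merged HA peak. LAMB3 has 4754 bp in WT cells and no region in ProMMP2-3xHA cells, the largest gap among these genes, and the 10 genes with both symbols at 0 had no region in either line.

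Regions in the WT list only were found at 5 members, among them LAMB3, ITGA9, ITGA11 and ITGAM, which is 12.5% (interval 4.19 to 26.8%), beside 3.94% of all genes. LAMB3 encodes a beta chain of epithelial basement membranes. It had a WT region of 4754 bp, chr1:209821630-209826383, the widest but 3 of the 794 genes with a region in the WT list only, whose median was 600.5 bp. In ProMMP2-3xHA cells its nearest H3K4me3 region lay 131419 bp from the canonical TSS. ITGA9 had 713 bp, ITGAM 637 bp at an internal start and ITGA11, a collagen receptor chain of fibroblasts, 350 bp, all closer to that median. LAMA3, the alpha chain that assembles with LAMB3, had no region in either line, so neither chain had H3K4me3 near a TSS in ProMMP2-3xHA cells.

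The promoters of LAMA3 and LAMB3 are shown beside that of ITGA2, which had wide H3K4me3 in both lines, to set starts without a region in ProMMP2-3xHA cells next to one with a region. Each is the GRCh37 sequence of the 250 bases before the canonical TSS, 5′ to 3′ on the strand of the gene (chr18:21269167-21269416, plus strand, chr1:209825771-209826020, minus strand and chr5:52284932-52285181, plus strand, in this order), with capitals as above. For LAMA3 this is the start of the long transcript, and internal starts make the shorter form.
LAMA3: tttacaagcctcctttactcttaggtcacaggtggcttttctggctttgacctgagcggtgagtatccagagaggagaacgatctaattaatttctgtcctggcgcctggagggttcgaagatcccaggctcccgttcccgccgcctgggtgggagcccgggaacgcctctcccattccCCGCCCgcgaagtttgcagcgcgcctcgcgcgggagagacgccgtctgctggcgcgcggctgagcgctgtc
LAMB3: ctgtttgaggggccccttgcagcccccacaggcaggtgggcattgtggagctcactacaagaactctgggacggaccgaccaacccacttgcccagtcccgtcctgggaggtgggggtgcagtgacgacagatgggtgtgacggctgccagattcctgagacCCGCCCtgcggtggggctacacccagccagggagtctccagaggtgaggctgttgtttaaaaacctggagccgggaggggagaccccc
ITGA2: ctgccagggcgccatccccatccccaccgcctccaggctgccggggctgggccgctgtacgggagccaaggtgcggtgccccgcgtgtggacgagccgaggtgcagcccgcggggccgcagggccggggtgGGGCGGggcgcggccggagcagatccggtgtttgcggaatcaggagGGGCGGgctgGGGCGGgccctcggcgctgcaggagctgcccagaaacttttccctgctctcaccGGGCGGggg
The LAMA3 and LAMB3 windows held 1 GC box each, and ITGA2 held 4. The CpG content, observed over expected from the C and G counts, was 0.957 for LAMA3, 0.315 for LAMB3 and 0.725 for ITGA2. LAMB3 thus had a wide WT region at a promoter poor in CpG.

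Over the same window of all members, the median of G and C was 66% (30 to 82.8%), beside 63.2% over 20140 promoters, and the median CpG ratio 0.636, beside 0.746. The 10 members with HA had a median of 71% and the 15 with H3K4me3 alone 71.6%, so these classes had nearly the same composition, while the 10 members without H3K4me3 had 55.6% and a CpG ratio of 0.130. GC box letters were in 25 of 40 windows (62.5%, beside 58.6%), CCAAT letters in 4 (10%, beside 34.2%), AP-1 letters in 4 (10%, beside 4.73%), TATA box letters in 0 (beside 9.40%) and E-box letters in 0 (beside 7.87%). These are counts of letters in a window and not binding sites.

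No H3K4me3 near a TSS in either line was found at 10 members (25%, beside 33.3% of all genes). They were the epithelial and leukocyte beta chains ITGB6 and ITGB7, the leukocyte alpha chains ITGAL, ITGAX, ITGAD and ITGAE, the alpha chains ITGA8 and ITGA10, and the laminin chains LAMA3 and LAMB4. None of these 10 had an HA peak near a TSS.

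The genes around the receptors were scored by the same rule. Of the cytoplasmic adhesion proteins that link integrins to actin and to kinases, 19 of 32 had a merged HA peak and 31 had H3K4me3 in both lines, FERMT3, the blood cell kindlin, being without. The highest means over the 3 replicates were those of LIMS1, an adaptor of integrin-linked kinase (12.3 ± 1.37, SD, n = 3), the actin crosslinkers ACTN1 (9.02 ± 2.56) and FLNA (7.91 ± 0.584), TLN1, talin (6.42 ± 1.16), and VCL, vinculin (6.01 ± 0.803). LIMS1 was above every member in each replicate, with values of 12.1, 11.1 and 13.8. Of the membrane partners, 10 of 14 had a merged HA peak, led by the syndecans SDC4 (7.05 ± 1.49) and SDC1 (6.33 ± 1.28), the tetraspanin CD151 (6.24 ± 0.771), BSG, basigin (6.01 ± 1.82), and DAG1, dystroglycan (5.31 ± 0.622). Of the basement membrane and matrix ligands, 6 of 20 had one, and those with a peak in all 3 replicates were CCN2 (9.89 ± 3.01) and CCN1 (5.49 ± 0.472), matricellular proteins, THBS1, thrombospondin (6.44 ± 1.14), and FN1, fibronectin (4.27 ± 0.330), while VTN, SPP1, FBLN2 and POSTN had no H3K4me3 in either line. In total, 35 of the 66 partner genes had a merged HA peak, beside 31.7% of all genes. The shares were 59.4% of the cytoplasmic proteins, 71.4% of the membrane partners and 30% of the matrix ligands, and these lists also differ in their share of genes with H3K4me3 (31 of 32, 13 of 14 and 15 of 20). The closer background is the 50.1% of all genes with H3K4me3 in both lines that had a merged HA peak. Among partner genes with H3K4me3 in both, 19 of 31 cytoplasmic proteins, 9 of 13 membrane partners and 6 of 15 matrix ligands had one.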

How the data were processed

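The authors trimmed the reads with Trim Galore 0.6.0, aligned them to hg19 (GRCh37) with Bowtie2 2.3.5.1, filtered them with SAMtools 1.9 and Picard, and called peaks with MACS2 3.0.0a6 at a q-value of 0.05. The deposited replicate lists give, as the authors' values, a score, the fold enrichment (a ratio over the control) and −log10 values of the p-value and q-value per peak. The score was used in no result. The merged HA and both H3K4me3 lists are deposited intervals without values, in which the authors had joined narrow and broad calls. By the list names, an HA control immunoprecipitation was the background of the replicates. Here, lines sharing an interval were 1 peak with its highest fold enrichment. TSSs came from GENCODE 44 lifted to GRCh37, and the 342 genes without a protein coding transcript used their canonical or gene start. Overlaps were computed with Python 3.11.15 and numpy 2.4.6 and checked against bedtools 2.31.1. Fragments at a summit were recovered from fold enrichment and p-value for 97.7 to 98.7% of summits. A count was accepted when it lay within 0.06 of a whole number. On 2000 simulated summits per replicate, at least 98.1% were resolved. Sequences are GRCh37, and no peak ran past the end of a chromosome. All comparisons are counts or values beside the background, with no p-value, because the members and lists were chosen with earlier results of these data known. Members were named with genes that share their promoter, and 1 member and 1 marker, which stay in the counts, are not reported here by name. Of the partner lists, the 5 genes with the highest mean fold enrichment among those with a peak in all 3 replicates were named, with those without H3K4me3. Alternatives varied the TSS, the window, the q-value, the minimum width of H3K4me3 and the replicates.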

Additional observations from a re-analysis of the deposited data

How the results depend on the processing

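Of 88 alternative values for 11 results, 79 stayed within 1.5 times the main count or within the spread and 9 moved. Most moved when a peak had to cover the TSS base: members with a merged HA peak fell to 5 (12.5%, beside 21.1% of all genes), those with a peak in every replicate to 2 (5%, beside 8.72%), their mean number per replicate to 5 (main 9.67), and members with H3K4me3 in the WT list only rose to 9 (22.5%, beside 9.72%), while the H3K4me3 width ratio of members with HA over those without rose to 2.50. By construction that setting asks for more than proximity. Requiring merged peaks to be overlapped by every replicate gave 6 members. Leaving out 1 replicate gave 6 to 10 members with a peak in every remaining replicate, the 10 without replicate 1, whose list is the shortest. The share of member summits downstream of the TSS was 58.9% from the gene 5′ end and 54.2% from the canonical TSS (main 47.6%), and so passed from mostly upstream to mostly downstream, beside 64.1 and 56.6% for all genes (main 55.8%). The cause of these shifts was not tested further. The alternatives for H3K4me3 in the WT list only were chosen after seeing the data. Depth limits the absence of a peak: at 31 to 99 fragments per member summit in replicate 2, weaker recovery would not be listed. No paired analysis was possible because the HA group has replicates 1 to 3 and the other groups only replicate 1.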

Other observations

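Away from their starts, several members carried HA peaks inside or beside the gene, which entered no count above and were chosen after their values were seen. ITGA10 had a merged peak in its last exon, chr1:145542329-145542689, 17479 bp downstream of the nearest TSS, with values of 4.16, 5.99 and 5.26 in replicates 1, 2 and 3, no H3K4me3 in either line within 1 kb, and the noncoding gene ENSG00000244619 beside it. This was the only member without H3K4me3 near a TSS that held a peak of every replicate away from any H3K4me3 region.

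ITGAE had a merged peak in intron 26, chr17:3626910-3627214, with values of 5.24 in replicate 1, 6.39 in replicate 2 and between these in replicate 3, beside H3K4me3 of both lines, where the histone H3 kinase gene HASPIN starts. The 5′ end of the ITGA7 gene lay at the edge of the 14224 bp merged region chr12:56109600-56123823, near the starts of BLOC1S1, RDH5 and CD63. The replicate peaks that overlapped the ITGA7 gene at this edge had values of 3.91, 7.11 and 4.71. The 5′ end of the ITGB3BP gene lay beside a merged peak at the start of PGM1, with 4.40 and 5.25 in replicates 1 and 2. LAMA1 had peaks in replicates 1 (4.91) and 2 (3.83) around exon 11, where the WT list alone had an H3K4me3 region of 1129 bp. ITGA11 had a peak in intron 12 in replicates 2 (4.59) and 3 (4.37) without H3K4me3. ITGA8 had a peak in intron 25 in replicate 1 alone (5.29), also without H3K4me3.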
